A study of Mus musculus with 6 samples.

Results

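A set of 10 ear cartilage genes that do not encode collagens was examined in PDGFRα-positive cells sorted from mouse ears. They were Cnmd, Acan, Matn1, Matn3, Sox9, Comp, Hapln1, Chad, Cytl1 and Ucma, and every probe set whose platform annotation names only 1 of them was taken. This gave 17 probe sets for all 10 genes, out of 34945 probe sets that name 1 gene and 18193 genes in all. Cancer-associated fibroblasts (CAF) were sorted from visibly dysplastic ears of male K14-HPV16 mice aged 4 months, which carry human papillomavirus genes under a keratin promoter active in basal keratinocytes. The comparison cells, normal dermal fibroblasts (NDF), were taken from male non-transgenic FVB/n mice of the same age, also from ears, and both groups were sorted for PDGFRα, a receptor used as a fibroblast marker. Each group had 3 arrays, which their titles call biological repetitions. The protocol names 15 mice per genotype without saying whether each array was a separate pool. The p-values therefore measure only the spread between these arrays, and how much of it lies between mice is not known. The question taken up is how genes of the ear's cartilage plate stood in cells sorted from dysplastic ears, against cells from normal ears.

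The mouse ear is held up by a thin plate of elastic cartilage beneath the dermis. Chondrocytes, the cells of cartilage, depend on the transcription factor SOX9 and lay down a matrix of type II collagen and aggrecan, a large proteoglycan that holds water. Link protein ties aggrecan to hyaluronan, and matrilins, thrombospondin-type proteins and leucine-rich proteins join the collagen fibrils to the rest of the matrix. Several of these genes are also used outside cartilage, Comp in tendon and Sox9 in hair follicles.

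Promoter sequence is shown for Cnmd and Matn3, the 2 genes whose brightest probe sets had the widest differences between the groups. Each line gives the 250 bases before the start set in the promoter table, 5′ to 3′ in the direction of the gene, from RefSeq on GRCm38.p6. Cnmd lies on the minus strand (chr14:79662184-79662433) and Matn3 on the plus strand (chr12:8947679-8947928).
Cnmd: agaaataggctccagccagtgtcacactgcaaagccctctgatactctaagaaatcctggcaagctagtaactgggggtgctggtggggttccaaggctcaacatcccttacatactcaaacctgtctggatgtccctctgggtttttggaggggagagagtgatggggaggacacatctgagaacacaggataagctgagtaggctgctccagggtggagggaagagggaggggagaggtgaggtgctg
Matn3: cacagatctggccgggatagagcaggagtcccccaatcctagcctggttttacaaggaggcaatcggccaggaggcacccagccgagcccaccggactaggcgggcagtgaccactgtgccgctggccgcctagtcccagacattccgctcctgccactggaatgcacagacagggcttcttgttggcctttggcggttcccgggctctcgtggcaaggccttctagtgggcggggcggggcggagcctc
Of the 10 genes 8 matched an entry in the promoter table, and Sox9 and Comp did not. Forms of the SOX core motif, ACAAAG and ACAATG, were searched on both strands of these windows. Capitals would mark a match, and none of the 8 windows held either form, against 25.5% of 27025 promoters that held one of them. No match says only that these letters are not in these windows. The windows of Cnmd and Hapln1 reach into the listed spans of these genes, chr14:79637682-79662194 and chr13:89540529-89611832.

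No cartilage gene passed the test, and the values had means below those of NDF for all but Comp. Values are log2 intensities as deposited, and differences are CAF minus NDF from limma with Benjamini-Hochberg adjustment over all 18193 genes. At an adjusted p under 0.05, 0 of the 10 genes were called, against 0.517% of all genes. At an unadjusted p under 0.05, 3 of 10 were lower and 0 higher, against 4.02% of all genes lower and 4.93% higher. For 4 genes, Cnmd, Matn3, Hapln1 and Ucma, every CAF array was below every NDF array, which held for 8.66% of all genes. The difference was below 0 for 9 of 10, against 55.5% of all genes, and the median was -0.50, against -0.04 over all genes. Without CAF replicate 1 the difference was below 0 for 6 of 10, and 5 of 10 lay below the median of all genes, against 9 with every array. Among the 17 probe sets, tested with all 45037 that are not controls, 0 were called (0.162% of all probe sets) and 5 were lower at an unadjusted p under 0.05 (3.18%). Of the same 17, 5 had every CAF array below every NDF array (7.14% of all probe sets) and 15 had a difference below 0 (53.6%). In sorted bulk samples, fewer cells of a type and less RNA per cell cannot be told apart.

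**Figure D1:**
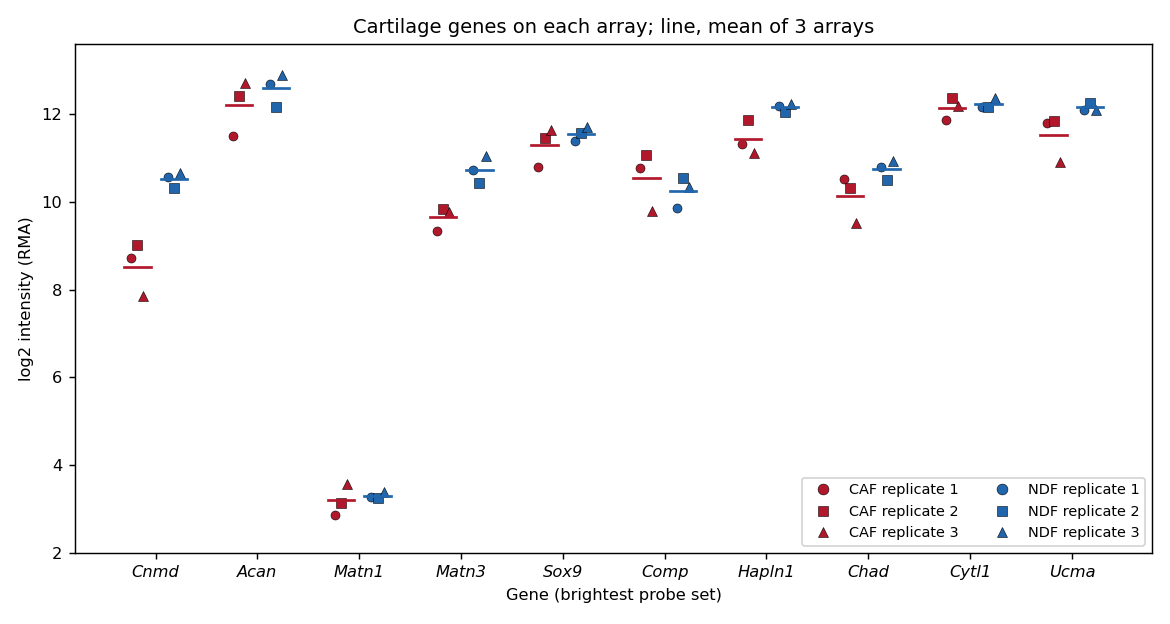
Log2 intensity of the brightest probe set of each of the 10 cartilage genes (vertical axis) on the 3 CAF arrays (red, left) and the 3 NDF arrays (blue, right), with a line at each group's mean and a marker shape per replicate. Cnmd shows the widest gap, at 8.52 in CAF and 10.52 in NDF, while Cytl1, Acan and Sox9 overlap between the groups.

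Cnmd encodes chondromodulin, a glycoprotein of cartilage known to hold back blood vessel growth. It was at 8.71, 9.01 and 7.85 on CAF replicates 1, 2 and 3, against 10.57, 10.32 and 10.67 on NDF replicates 1, 2 and 3. The groups did not overlap, and CAF replicate 3 was the lowest array. The mean was 8.52 ± 0.60 in CAF and 10.52 ± 0.18 in NDF (SD, n = 3 each), a difference of -1.996 ± 0.32 (SE), which is a 3.99-fold difference in intensity. Its 95% interval ran from -2.76 to -1.24, and the limma adjusted p was 0.0633, so the gene missed the threshold. A more negative difference was found for 0.121% of all genes. Without CAF replicate 3 the difference was -1.66 and the adjusted p was 0.026, past the threshold, and without NDF replicate 3 the adjusted p was 0.302. The call was also made with equal array medians (adjusted p = 0.0463), with an intensity trend (0.0355) and with array quality weights (0.00631). With the mean of each gene's probe sets it was made too (0.0452), but Cnmd has 1 probe set, so its values were unchanged. With the replicate block the call was not made (adjusted p = 0.197).

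The gap between Cnmd and the median of the other 9 genes on the same array was larger in CAF. It was -2.09, -2.45 and -3.07 log2 units on CAF replicates 1, 2 and 3, against -0.81, -1.25 and -1.04 on NDF replicates 1, 2 and 3. The same gap was computed for each of the 10 genes, and the groups overlapped for all but Cnmd. These gaps describe unequal differences between probe sets on the same arrays and carry no test.

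The aggrecan network was measured by Acan and Hapln1. Acan, the gene of aggrecan, was at 11.49, 12.42 and 12.71 on CAF replicates 1, 2 and 3, against 12.69, 12.17 and 12.90 on NDF replicates 1, 2 and 3. CAF replicate 1 stood below all other arrays, and CAF replicates 2 and 3 lay within the range of NDF. The difference was -0.38 ± 0.36 (SE), with a 95% interval of -1.24 to 0.49 (limma adjusted p = 0.869), and it was -0.016 without CAF replicate 1.

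Hapln1 encodes link protein, which fastens aggrecan to hyaluronan. Its brightest probe set was at 11.32, 11.88 and 11.11 on CAF replicates 1, 2 and 3, against 12.19, 12.05 and 12.23 on NDF replicates 1, 2 and 3. Every CAF array was below every NDF array, with CAF replicate 2 the nearest. The mean was 11.43 ± 0.40 in CAF and 12.16 ± 0.10 in NDF (SD, n = 3 each), a difference of -0.72 ± 0.24 (SE, limma adjusted p = 0.404). Hapln1 had 3 other probe sets, whose values come from the fit over all probe sets. The probe set 1426294_at was at 5.87, 6.31 and 3.41 on CAF replicates 1, 2 and 3, against 7.32, 6.26 and 7.74 on NDF replicates 1, 2 and 3. CAF replicate 3 was far below the rest, and NDF replicate 2 lay among the other CAF arrays. Its difference was -1.91 ± 0.79 (SE, adjusted p = 0.71), and without CAF replicate 3 it was -1.01. The probe set 1426295_at differed by -1.07 ± 0.37 (SE, adjusted p = 0.587), with CAF replicate 3 the highest of the CAF arrays at 6.32. The remaining one, 1421633_a_at, lay below the median of all probe sets (4.84) on every array and differed by 0.03, a sign that turned to -0.07 without CAF replicate 2.

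The matrilins are oligomeric adaptors of the cartilage matrix. The brightest probe set of Matn3 was at 9.33, 9.85 and 9.78 on CAF replicates 1, 2 and 3, against 10.73, 10.43 and 11.05 on NDF replicates 1, 2 and 3. The groups did not overlap. The difference was -1.08 ± 0.24 (SE), with a 95% interval of -1.66 to -0.51 (limma adjusted p = 0.166). With array quality weights it was -1.34 and passed the threshold (adjusted p = 0.0296). That probe set carries a suffix for sequences that can match other transcripts. The other, 1422148_at, was at 5.22, 5.94 and 4.37 on CAF replicates 1, 2 and 3, against 5.74, 6.19 and 6.10 on NDF replicates 1, 2 and 3. It overlapped between the groups and differed by -0.83 ± 0.40 (SE, adjusted p = 0.79), and by -0.43 without CAF replicate 3. Matn1, which encodes the matrilin also called cartilage matrix protein, stayed below the median of all probe sets on every array. It was at 2.87, 3.14 and 3.57 on CAF replicates 1, 2 and 3, against 3.27, 3.26 and 3.38 on NDF replicates 1, 2 and 3, and its difference of -0.11 ± 0.22 (SE, adjusted p = 0.954) turned to 0.05 without CAF replicate 1.

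**Figure D2:**
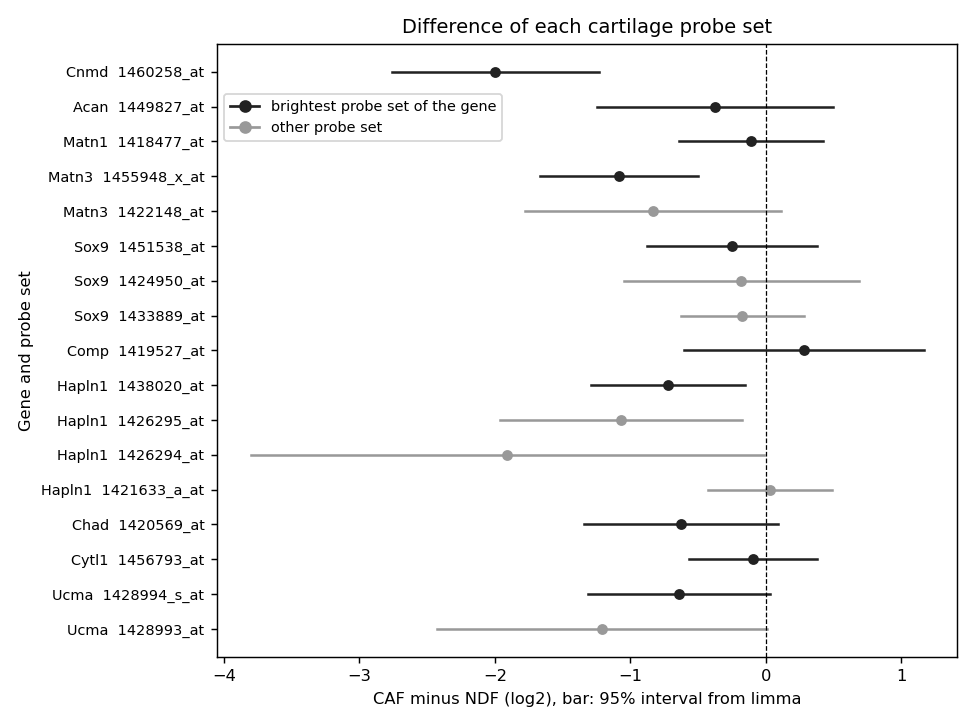
CAF minus NDF difference (log2, horizontal axis) of each of the 17 probe sets of the 10 genes, with its 95% interval from the fit over all probe sets. Black marks the brightest probe set of a gene and grey the others. The difference is below 0 for 15 of 17, and Cnmd and the Hapln1 probe set 1426294_at lie farthest from 0, at -1.996 and -1.91.

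Ucma, Chad and Cytl1 encode small or leucine-rich secreted proteins of cartilage. Ucma encodes a vitamin K-dependent protein rich in γ-carboxyglutamate. Its brightest probe set was at 11.79, 11.84 and 10.92 on CAF replicates 1, 2 and 3, against 12.10, 12.26 and 12.10 on NDF replicates 1, 2 and 3. Both probe sets of Ucma had every CAF array below every NDF array, and CAF replicate 3 was the lowest in both. The brightest, 1428994_s_at, also carries a suffix for sequences that can match other transcripts. With such probe sets left out, 3 of the 10 genes had every CAF array below every NDF array. The brightest differed by -0.64 ± 0.28 (SE, 95% interval -1.31 to 0.03, limma adjusted p = 0.584), and by -0.34 without CAF replicate 3. The other, 1428993_at, was at 11.35, 11.21 and 9.42 on CAF replicates 1, 2 and 3, against 11.70, 12.02 and 11.89 on NDF replicates 1, 2 and 3. Its difference was -1.21 ± 0.51 (SE, adjusted p = 0.717), and -0.59 without CAF replicate 3.

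Chad encodes chondroadherin, a leucine-rich repeat protein that binds chondrocytes. It was at 10.53, 10.32 and 9.52 on CAF replicates 1, 2 and 3, against 10.80, 10.50 and 10.93 on NDF replicates 1, 2 and 3. CAF replicate 1 lay just above NDF replicate 2, and CAF replicate 3 was the lowest of the 6 arrays. The difference was -0.62 ± 0.30 (SE, 95% interval -1.33 to 0.09, adjusted p = 0.633), and -0.32 without CAF replicate 3. Cytl1, the gene of a cytokine-like protein secreted by chondrocytes, was at 11.86, 12.36 and 12.19 on CAF replicates 1, 2 and 3, against 12.17, 12.16 and 12.36 on NDF replicates 1, 2 and 3. The groups overlapped, and the 95% interval of its difference of -0.09 ran from -0.57 to 0.38 (adjusted p = 0.955).

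Sox9, the transcription factor gene, and Comp, a thrombospondin family member of cartilage and tendon, also overlapped between the groups. The brightest probe set of Sox9 was at 10.80, 11.46 and 11.65 on CAF replicates 1, 2 and 3, against 11.38, 11.57 and 11.71 on NDF replicates 1, 2 and 3. Only CAF replicate 1 lay below the NDF range. The difference was -0.25 ± 0.26 (SE, 95% interval -0.87 to 0.37, adjusted p = 0.884), and its 2 other probe sets differed by -0.18 and -0.17. Without CAF replicate 1 the difference of the brightest was 0.0036. Comp was at 10.77, 11.06 and 9.79 on CAF replicates 1, 2 and 3, against 9.87, 10.55 and 10.35 on NDF replicates 1, 2 and 3. It was the only one of the 10 genes with a mean above that of NDF, by 0.28 ± 0.37 (SE, 95% interval -0.59 to 1.16, adjusted p = 0.913), and CAF replicate 3 was the lowest of all 6 arrays. The size of that difference turned on single arrays, at 0.658 without CAF replicate 3, 0.0198 without CAF replicate 2 and 0.0893 without NDF replicate 1.

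Spread among the CAF arrays exceeded that among the NDF arrays over the whole array, with a median SD of 0.35 in CAF and 0.21 in NDF and a larger SD in CAF for 72.0% of all genes. Of the 10 cartilage genes 9, all but Matn3, had the larger SD in CAF. CAF replicate 1 was the lowest CAF array for 5 genes (Acan, Matn1, Matn3, Sox9 and Cytl1) and CAF replicate 3 for the other 5 (Cnmd, Comp, Hapln1, Chad and Ucma). CAF replicate 2 was the lowest for 0 of 10. Over all genes, CAF replicates 1, 2 and 3 were the lowest CAF array for 24.4%, 41.0% and 34.7%. Relative to the NDF mean, the median of the 10 genes was -0.59, -0.22 and -0.71 on CAF replicates 1, 2 and 3. Acan was at -1.09 on CAF replicate 1 and 0.13 on CAF replicate 3, whereas Ucma was at -0.37 and -1.24. The median profile of the 10 genes over the 6 arrays spanned 0.87 log2 units, below the minimum of 1 set for naming genes of like pattern, and none were named.

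**Figure D3:**
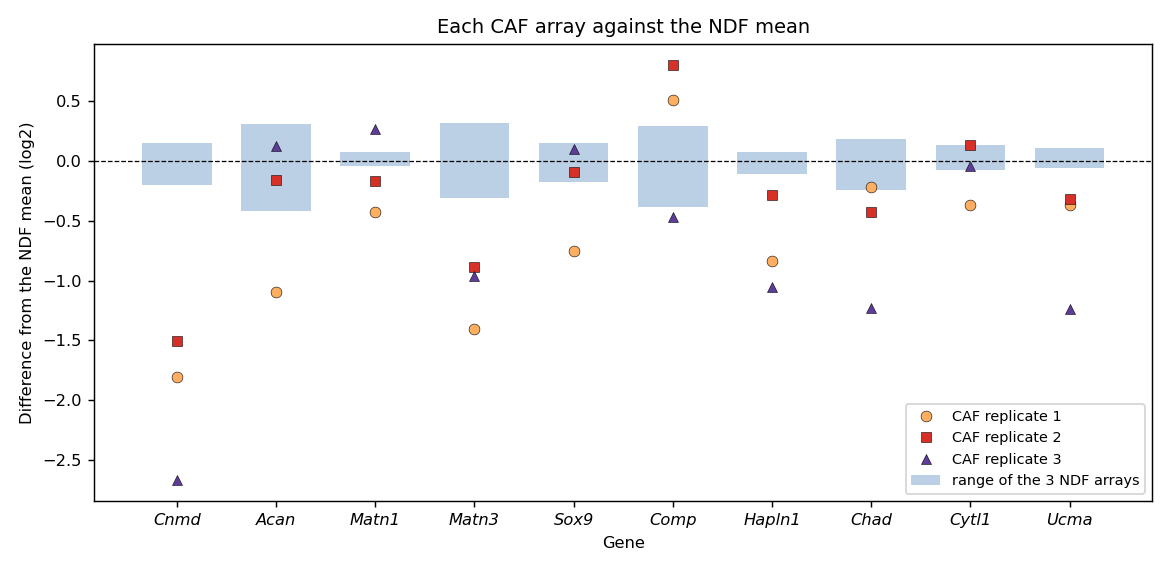
Difference of each CAF array from the NDF mean (log2, vertical axis) for the 10 genes, 1 marker per CAF replicate, with the range of the 3 NDF arrays as a blue box. Acan, Matn1, Matn3, Sox9 and Cytl1 are lowest on CAF replicate 1, and Cnmd, Comp, Hapln1, Chad and Ucma on CAF replicate 3.

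CAF replicate 3 stood apart from the other arrays over all probe sets. The interquartile range of its probe sets' distances from their median over the 6 arrays was 0.65, against 0.26 to 0.35 on the other 5. The median log2 value per array was 4.75 to 4.87 in CAF and 4.73 to 4.84 in NDF. Precision is limited by how few arrays there are. The 3′ minus 5′ difference of the actin control probe sets was 1.30 to 1.72 in CAF and 1.39 to 1.68 in NDF, and that of the transferrin receptor controls was 3.85 to 4.01 in CAF and 4.33 to 5.68 in NDF. The part of these measures in the cartilage values was not tested. With CAF replicate 3 left out, 1 of the 10 genes was called (Cnmd), beside 156 genes in all, against 94 with every array.

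Further cartilage genes were read from lists on the same arrays. Over all genes, 0.517% were called. At an unadjusted p under 0.05, 4.02% of all genes were lower and 4.93% higher, shares that stand beside each list below. Of 7 cartilage collagen genes 0 were called, 6 were lower at an unadjusted p under 0.05, and the median difference was -0.76. Col9a1, a chain of the type IX collagen that coats cartilage fibrils, was at 9.88, 10.82 and 10.94 on CAF replicates 1, 2 and 3, against 12.04, 11.92 and 12.33 on NDF replicates 1, 2 and 3 (difference -1.55 ± 0.32, SE, limma adjusted p = 0.128). Col2a1, the main cartilage collagen, differed by -1.35 ± 0.34 (adjusted p = 0.229), and in both genes every CAF array was below every NDF array. Col11a2 and Col11a1, minor fibril collagen chains, differed by -0.73 and -1.16 (adjusted p = 0.396 and 0.397). Col11a2 lay near the median of all probe sets (4.84), averaging 4.39 in CAF and 5.12 in NDF. So did Col9a2, named after its values were seen, at 4.63 in CAF and 5.14 in NDF.

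Of 10 other cartilage matrix genes measured out of 11 listed, 0 were called, 3 were lower and 1 higher at an unadjusted p under 0.05, and the median was -0.34. Mia, which encodes a small protein secreted by cartilage and melanoma cells, averaged 10.04 ± 0.34 in CAF and 11.31 ± 0.18 in NDF (SD, n = 3 each, adjusted p = 0.0952). Papss2, an enzyme that makes the sulphate donor for proteoglycans, averaged 9.01 ± 0.21 in CAF and 10.13 ± 0.31 in NDF (adjusted p = 0.128). Prg4, the gene of the joint lubricant lubricin, had the opposite sign at 11.71 ± 0.31 in CAF and 10.70 ± 0.53 in NDF (adjusted p = 0.358). Cilp2, a cartilage intermediate layer protein gene, differed by -1.11 (adjusted p = 0.396).

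Of 11 regulators of cartilage formation measured out of 12 listed, 0 were called. At an unadjusted p under 0.05, 1 was lower and 1 higher, and the median was -0.11. The median turned to 0.12 when each array was shifted to equal levels of fibroblast markers, a scale on which the median of all genes was 0.19. Runx3, a transcription factor of chondrocyte maturation that is also used in lymphocytes, was at 5.12, 5.10 and 5.26 on CAF replicates 1, 2 and 3, against 4.58, 4.52 and 4.42 on NDF replicates 1, 2 and 3 (adjusted p = 0.218). Gdf5, a growth factor of joint formation, differed by -0.98 (adjusted p = 0.263). Trps1 and Sox6, further transcription factors of cartilage, differed by 0.44 and -1.15 (adjusted p = 0.645 and 0.703), and CAF replicate 3 was the lowest array for Sox6 at 5.39.

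Of 16 family relatives of the cartilage genes 0 were called, 2 were lower at an unadjusted p under 0.05, and the median was -0.36. Matn2, a matrilin of many connective tissues, averaged 10.34 ± 0.16 in CAF and 11.24 ± 0.08 in NDF (SD, n = 3 each), a difference of -0.90 ± 0.17 (SE, adjusted p = 0.114). The thrombospondin gene Thbs2 differed by -0.93 (adjusted p = 0.555) and the matrilin gene Matn4 by -0.42 (adjusted p = 0.614). Tnmd, the tendon relative of Cnmd, was at 11.49, 10.09 and 9.24 on CAF replicates 1, 2 and 3, against 11.17, 11.58 and 11.69 on NDF replicates 1, 2 and 3 (difference -1.21 ± 0.54, SE, adjusted p = 0.596). Unlike Cnmd, it overlapped between the groups.

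**Figure D4:**
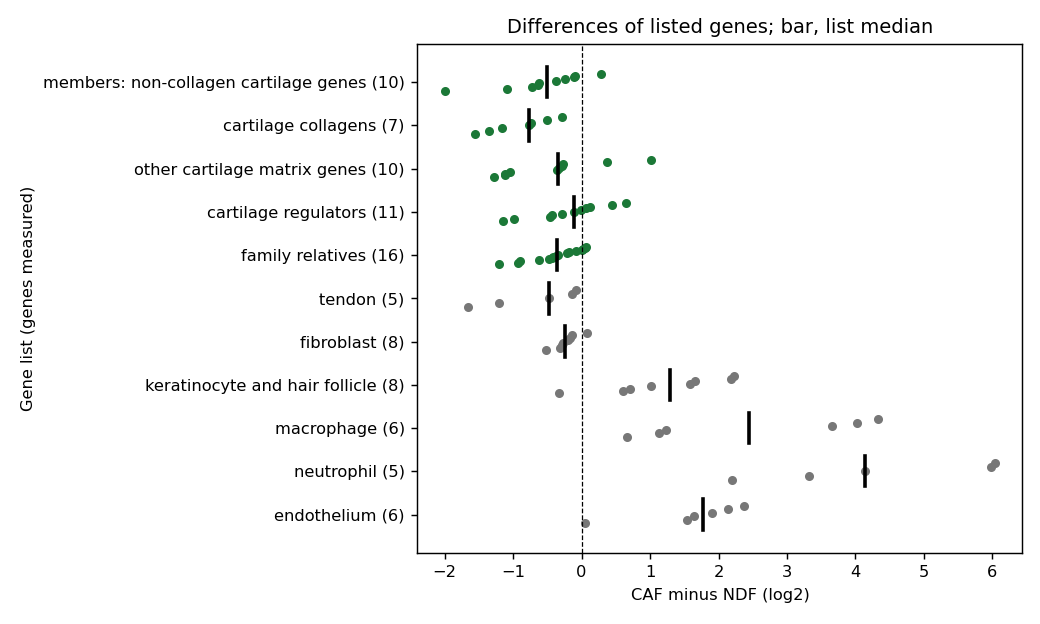
CAF minus NDF difference (log2, horizontal axis) of each measured gene in the cartilage lists (green) and in marker lists of tendon, fibroblasts and other cells (grey), with a black bar at each list's median. The median is -0.50 for the 10 cartilage genes, -0.76 for cartilage collagens, -0.24 for fibroblast markers and 4.14 for neutrophil markers.

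Markers of other cells stood beside these values on the same arrays. The sort marker Pdgfra averaged 12.54 ± 0.11 in CAF and 12.46 ± 0.15 in NDF (SD, n = 3 each), and Col1a1, a chain of the main dermal collagen, 13.36 ± 0.14 in CAF and 13.50 ± 0.03 in NDF. Of 8 fibroblast markers 0 were called and 1 was lower at an unadjusted p under 0.05, the median difference was -0.24, and the log2 of their summed intensity was 15.63 to 15.93 on CAF arrays and 15.94 to 16.06 on NDF arrays. For the 10 cartilage genes that sum was 14.20 to 14.66 on CAF arrays and 14.72 to 14.99 on NDF arrays. With each array shifted to equal fibroblast markers, the median over all genes moved to 0.19. On that scale the median of the 10 cartilage genes was -0.27, 7 of 10 had a difference below 0 and 9 of 10 lay below the median of all genes. Cnmd was then called at -1.77 (adjusted p = 0.0457), and Matn1 and Cytl1 had differences of 0.12 and 0.13.

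Of 8 keratinocyte and hair follicle markers 0 were called by limma, and the 5 higher at an unadjusted p under 0.05 had every CAF array above every NDF array (6.78% of all genes), with a summed log2 intensity of 11.57 to 13.06 in CAF and 10.72 to 11.04 in NDF. Krt5 and Krt14, keratins of the basal layer, differed by 1.65 and 2.19 (adjusted p = 0.152 and 0.115). Krt15 had the opposite sign at -0.33 (adjusted p = 0.952). It overlapped between the groups, as did Epcam and Lhx2, which differed by 0.70 and 0.61. Of 6 macrophage markers 3 were called higher, and all 6 had every CAF array above every NDF array. Their sum was 10.28 to 11.38 in CAF and 8.24 to 8.36 in NDF. Ptprc, Tyrobp and Cd14 rose by 4.33, 3.65 and 4.03 (limma adjusted p = 0.0197, 0.0134 and 0.0252). Adgre1, Csf1r and Cd68 differed by 1.24, 0.67 and 1.13 and were not called (adjusted p = 0.581, 0.588 and 0.595). Adgre1 averaged 4.54 in CAF and 3.30 in NDF, both below the median of all probe sets (4.84). Of 5 neutrophil markers 2 were called higher. All 5 were higher at an unadjusted p under 0.05, with every CAF array above every NDF array. The sum of the neutrophil markers was 12.77 to 13.78 in CAF and 6.51 to 9.35 in NDF. S100a8 rose by 6.04 (adjusted p = 0.0304) and S100a9 differed by 5.98 (adjusted p = 0.0733). Of 6 endothelial markers 0 were called, although 5 stood higher with an unadjusted p under 0.05, with a sum of 9.43 to 10.69 in CAF and 7.71 to 8.03 in NDF, and Pecam1 and Cdh5 differed by 1.53 and 0.05 (adjusted p = 0.365 and 0.987).

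Of 5 tendon markers 0 were called and 1, Kera, was lower at an unadjusted p under 0.05, and their sum was 12.11 to 12.93 in CAF and 13.24 to 13.46 in NDF. The median difference was -0.48, with Scx at -0.14 and Mkx at -0.08. Kera, which encodes the proteoglycan keratocan, differed by -1.65 (adjusted p = 0.154) and had every CAF array below every NDF array, and Thbs4, a thrombospondin of tendon, differed by -0.48 (adjusted p = 0.652). Tnmd, given above with the relatives of Cnmd, was the remaining marker of the list. Of 4 bone markers measured 0 were called, although 1 stood higher with an unadjusted p under 0.05, and the sum was 8.06 to 9.25 in CAF and 8.01 to 8.73 in NDF. Ibsp differed by 1.09, Sp7 by 0.35 and Dmp1 by 1.39, whereas Phex differed by -1.51 (adjusted p = 0.854) and overlapped between the groups. Krt15, Epcam, Lhx2, Cd14, Adgre1, Csf1r, Cd68, Kera, Thbs4, Dmp1, Phex and, below, Mylpf were named after their values were seen. The 4 Schwann cell markers measured had a sum of 9.35 to 10.04 in CAF and 9.85 to 10.07 in NDF, and the 5 skeletal muscle markers 6.72 to 6.997 in CAF and 7.09 to 8.22 in NDF. Sox10 and Mbp differed by 0.05 and -0.12, and Acta1 and Ckm by -0.23 and -0.12. All 5 muscle markers had a difference below 0 (55.5% of all genes), with a median of -0.31. Mylpf differed by -1.18 (limma adjusted p = 0.57), with every CAF array below every NDF array. None of these 9 passed the test, and 0 had an unadjusted p under 0.05. RMA values have no true zero, so no marker can be called absent, and the part of these cells in the cartilage values was not tested.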

How the data were processed

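Affymetrix mouse genome arrays were hybridised with RNA amplified once from sorted ear cells, 3 CAF and 3 NDF samples, grouped by their titles. The authors deposited log2 values made with GCOS and RMA, per the submitters' processing notes, with versions not given in the sources used here. RMA subtracts background, quantile normalises and summarises probes, which removes total intensity per array, and differences of dim probe sets are understated. No detection calls were used. The table holds 45101 probe sets, 64 of them controls; 34945 name 1 gene, 932 several and 9160 have no annotation entry. A RefSeq table of assembly GRCm38.p6 matched 34741 of the single-gene probe sets and updated 0 symbols.

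The brightest probe set of a gene, by mean over the arrays, was fitted with limma 3.58.1 in R 4.3.3 (lmFit and eBayes, two-sided, group only), adjusted over 18193 genes; other probe sets were fitted among all 45037. The threshold was an adjusted p of 0.05. The genes, lists and rule for named genes were chosen with earlier results of these data known, so counts over them are descriptions. The rule named every listed gene, up to 4 genes of each other cartilage list by p, and the first 2 of each marker list. The fit was tested on simulated data that gave both groups the same spread for each gene. The real SD was larger in CAF for 72.0% of all genes, so the simulation did not cover unequal spread. Alternatives were a replicate block, 3 further normalisations, a filter on dim probe sets, 2 probe set rules, 2 variance models, leaving out each array and, chosen after seeing the data, equal fibroblast markers. Plots used matplotlib 3.10.9 (Python 3.11.15).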

Additional observations from a re-analysis of the deposited data

How the results depend on the processing

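The number of all genes called, 94, was 20 with the replicate block, 155 with an intensity trend, 438 with array quality weights and 189 with equal fibroblast markers, and 5 to 156 when each array was left out in turn. The number of probe sets called, 73, was 8 with the replicate block, 24 on quantile normalisation again, 148 with an intensity trend, 446 with array quality weights and 191 with equal fibroblast markers, and 7 to 78 without each array. Of the 10 cartilage genes 0 were called in the reported fit. The count was 1 with equal array medians, the mean of a gene's probe sets, an intensity trend or equal fibroblast markers, 2 with array quality weights, 0 with the replicate block, and 0 to 1 without each array. Cnmd lay between -2.24 and -1.66 over the 16 alternatives, with adjusted p values of 0.00631 to 0.302, and was called in 6. Signs turned only for values near 0. With equal fibroblast markers Matn1 was 0.12, Cytl1 0.134, and the dimmer Sox9 probe sets 1424950_at and 1433889_at 0.0461 and 0.0557. When each array was left out in turn, Matn1 ran from -0.297 to 0.0537, Sox9 from -0.421 to 0.00364, Cytl1 from -0.206 to 0.044, 1424950_at from -0.466 to 0.108 and the Hapln1 probe set 1421633_a_at from -0.066 to 0.136. The first 3 turned without CAF replicate 1, 1424950_at without CAF replicate 1 or NDF replicate 2, and 1421633_a_at without CAF replicate 2 or NDF replicate 1. The other cartilage genes kept their sign in all alternatives run, and the cause of these shifts was not tested. The labels do not say that same-numbered arrays pair, so the numbers were not taken as pairs. Deviations from the group means correlated at -0.14, 0.14 and -0.04 between CAF and NDF replicates 1, 2 and 3. Between arrays of unlike number the range was -0.12 to 0.15. Deviations within a group are tied to each other, so these correlations cannot settle whether the arrays were paired.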
